A study of Mus musculus with 31 samples.

Results

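Colon that had lost the kinase TAK1 from its intestinal epithelium did not lose its epithelial transcripts evenly. Among the 10 HO libraries, the transcript of Vil1 (villin, an actin-bundling protein of the brush border) lay between 0.0834 and 179 FPKM, a fragment count scaled to gene length and library size. The 4 HO libraries with 2 to 100 FPKM of Vil1, here the higher-Vil1 HO libraries, were set against the 5 HO libraries under 2 FPKM, the lower-Vil1 HO libraries. HO replicate 2, over 100 FPKM, was left out, so that 9 of the 31 libraries in the series were compared. The sets were chosen by values measured in these same libraries. Every difference between them is therefore a description with no test, and the tested comparison is that of all 10 HO libraries with the 11 WT libraries, which takes no account of Vil1.

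HO colons came from mice that lacked TAK1 in intestinal epithelial cells and carried Ripk1 D138N/D138N, which leaves RIPK1 without kinase activity. WT colons came from mice with Tak1f/f alleles still intact and the same Ripk1 D138N/D138N, so that the controls too had no RIPK1 kinase activity. In DHO colons (n = 10) the epithelium lacked TRADD as well, again with the Ripk1 mutation. They entered only the shared estimate of spread. All tissue was taken at 7 days post induction. The sources used here name neither the Cre driver nor the inducing agent nor the age of the mice. Whether each library is 1 animal is not stated in the labels, and p-values then reflect only the spread among libraries, which may be technical. In whole tissue, fewer cells of a type and less RNA per cell cannot be told apart.

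The colon is lined by a single layer of epithelial cells that stem cells at the crypt base renew within days. Its absorptive colonocytes take up salt and water, goblet cells secrete mucus, and scattered enteroendocrine cells release peptide hormones. TAK1, encoded by Map3k7, transmits signals from TNF and Toll-like receptors to NF-kB and MAP kinases and keeps epithelial cells alive when TNF is present. When the layer is breached, neutrophils and monocytes enter, and fibroblasts secrete cytokines and matrix proteases.

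Of the 12812 genes tested, 4232 (33.0%) were higher and 4916 (38.4%) lower in HO than in WT colon (limma, Benjamini-Hochberg adjusted p under 0.05). Map3k7, the targeted gene, was at 12.5 to 16.9 FPKM in the higher-Vil1 libraries and 11.6 to 13.9 FPKM in the lower-Vil1 libraries, against 8.29 to 13.6 FPKM in WT, and over all 10 HO libraries it was slightly higher than in WT (limma log2 difference 0.35, adjusted p = 0.00362). A value for the whole gene in whole tissue cannot show the loss of an exon in one cell type. Ripk1 and Tradd overlapped between the Vil1 sets, with log2 differences of -0.0072 and 0.39. Tradd, which the labels do not name as deleted in HO, was lower in HO than in WT (limma log2 difference -1.75, adjusted p = 3.04e-08). Depth relative to HO replicate 1 was 0.771 to 0.982 in the higher-Vil1 libraries and 0.762 to 0.973 in the other 4 lower-Vil1 libraries. The noncoding RNA Gm15564 divides the libraries of the series. It was under 1 FPKM in HO replicates 3 and 5 of the higher-Vil1 set and in 1 and 4 of the lower-Vil1 set. Over 1 FPKM were replicates 8 and 10 of the higher-Vil1 set and 6, 7 and 9 of the lower-Vil1 set. Relative depth divided the 9 libraries in the same way. It was 0.968 to 1 in those under 1 FPKM of Gm15564 and 0.762 to 0.849 in those over it.

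Values per library are given in the order of HO replicates 3, 5, 8 and 10 for the higher-Vil1 set and of HO replicates 1, 4, 6, 7 and 9 for the lower-Vil1 set. Vil1 was at 2.39, 4.82, 11.8 and 22.9 FPKM in the higher-Vil1 libraries and at 0.627, 0.653, 1.47, 0.0834 and 0.215 FPKM in the lower-Vil1 libraries, against 184 ± 15.6 FPKM in WT (SD, n = 11). The libraries formed a gradient and not separate clusters: HO replicates 3 and 6 lay just inside and just outside the border. The higher-Vil1 set kept 5.71% of the WT mean and the lower-Vil1 set 0.332%, so both held far less villin transcript than intact colon.

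The lower-Vil1 libraries were not without epithelium-associated transcripts, and for that reason the sets are named by Vil1 and not as residual and absent epithelium. Krt8, a keratin of simple epithelia, was at 52.6, 104, 130 and 345 FPKM in the higher-Vil1 libraries and at 22.4, 22.4, 25.2, 2.07 and 7.13 FPKM in the lower-Vil1 libraries, against 2451 ± 433 FPKM in WT (SD, n = 11). Epcam, an adhesion protein found on nearly all epithelial cells, was at 14.4, 29.2, 76.6 and 103 FPKM in the higher-Vil1 libraries and at 3.76, 5.05, 14.8, 0.646 and 3.17 FPKM in the lower-Vil1 libraries. For Krt8 the sets did not overlap, but for Epcam HO replicate 6 of the lower-Vil1 set stood above HO replicate 3 of the higher-Vil1 set. HO replicate 7 had the least of both transcripts.

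**Figure D1:**
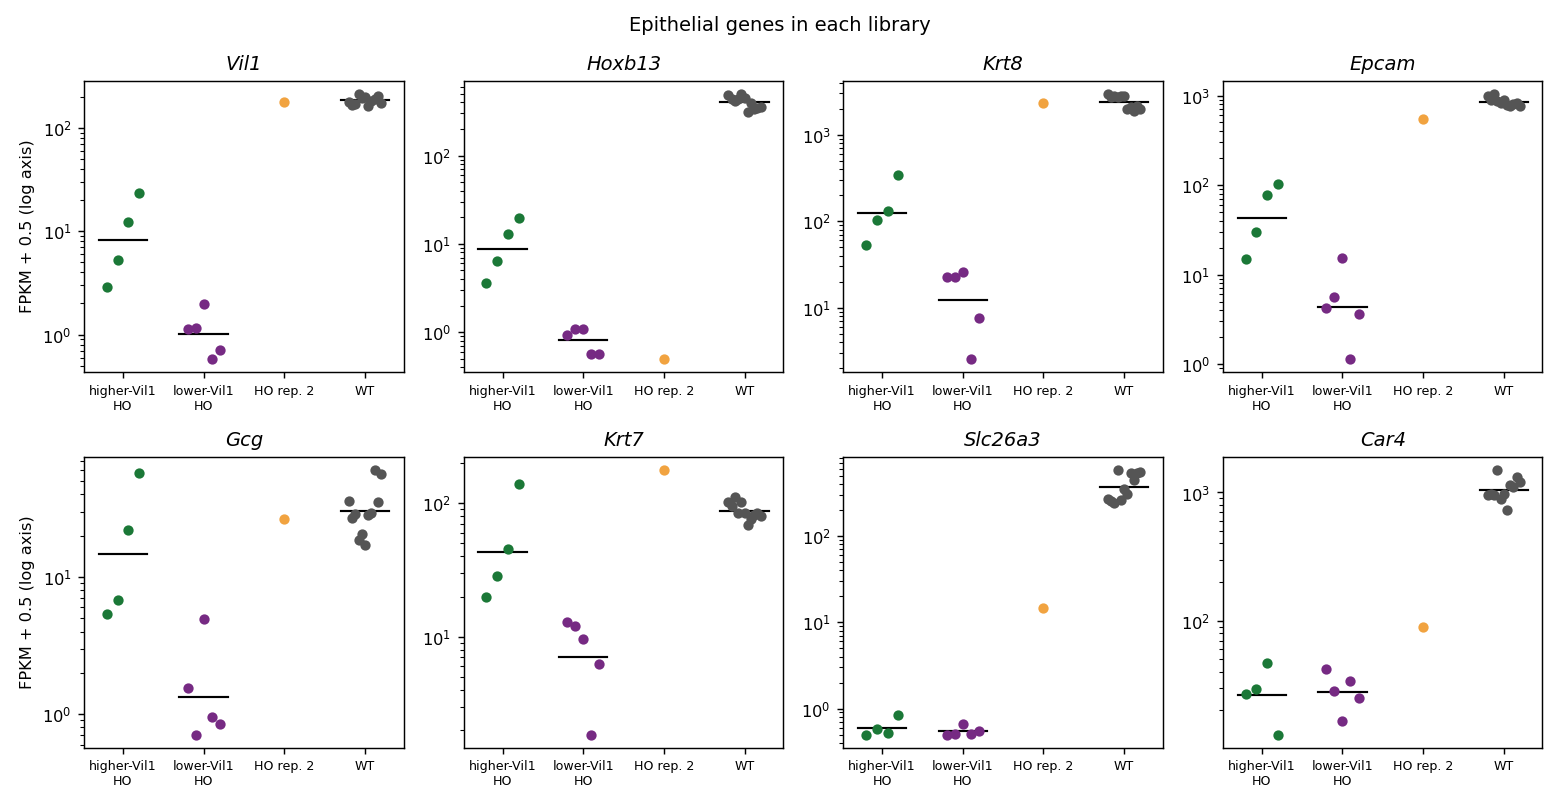
FPKM + 0.5 on a log axis for 8 epithelial genes, with 1 point per library in the 4 higher-Vil1 HO libraries, the 5 lower-Vil1 HO libraries, HO replicate 2 and the 11 WT libraries; bars are means on the log scale, and values of 0 sit at 0.5. Vil1 separates the sets because it defined them. Hoxb13 and Krt8 also separate them, Slc26a3 and Car4 do not, and Hoxb13 of HO replicate 2 is listed at 0.

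Hoxb13, a homeobox gene of the hindmost body axis expressed in the distal colon, followed the same order of libraries as Vil1 within the higher-Vil1 set. It was at 3.13, 5.92, 12.5 and 19.4 FPKM there and at 0.434, 0.595, 0.589, 0.0712 and 0.0639 FPKM in the lower-Vil1 set, against 314 to 493 FPKM in WT. HO replicate 2, whose Vil1 of 179 FPKM lay inside the WT range of 163 to 210 FPKM, was listed at 0 for Hoxb13. Vil1 and Hoxb13 therefore did not rank that library alike. Other distal Hox genes differed less between the sets. Hoxd13 was at 10.2, 11.7, 11.8 and 20.9 FPKM in the higher-Vil1 libraries and at 6.69, 8.67, 6.64, 8.27 and 7.00 FPKM in the lower-Vil1 libraries, without overlap. With the Vil1 border at 1 FPKM, or with HO replicate 2 added, both Hoxb13 and Hoxd13 overlapped. Hoxa13 overlapped, at 3.18 to 5.84 FPKM in the higher-Vil1 libraries and 2.52 to 4.92 FPKM in the lower-Vil1 libraries. Of 8 distal Hox genes tested, Hoxb13 itself was the 1 that differed at least 2-fold without overlap, as did 1.65% of all 12812 genes in that direction, and where along the colon each piece was taken was not tested.

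Across all genes the difference ran almost entirely one way. Genes were counted when no library of one set overlapped the other and the mean log2(FPKM + 0.5) differed by at least 1, a 2-fold change. By that rule 211 genes (1.65% of 12812) were higher in the higher-Vil1 set and 4 (0.0312%) were lower. Vil1 is among the 211 only because it defined the sets. The rule that formed the sets used the same libraries, so these shares are not evidence for either direction. The shares of listed genes counted higher below are to be set beside this 1.65%, and those counted lower beside the 0.0312%. Without HO replicate 3 the first count was 408 and without HO replicate 4 it was 320, and with the Vil1 border at 5 FPKM it was 448. Within the libraries under 1 FPKM of Gm15564 the counts were 127 higher and 21 lower, and within those over 1 FPKM they were 770 higher and 189 lower. The log2 difference in Vil1 itself was 1.78 within the former and 4.18 within the latter. Values given below for these divisions therefore compare unlike gaps in Vil1. Of the 211 genes, 199 were also lower in HO than in WT, beside 38.4% of all genes, 1 was higher and 11 did not pass that test. The lower-Vil1 libraries are part of HO, so their low values enter both comparisons. Genes could also pass the expression filter through WT and DHO alone, and 122 of the 211 remained with a filter of 1 FPKM in 4 of the 9 libraries. The 199 are therefore no separate support. The median level of the 211 genes was 8.88% of the WT mean in the higher-Vil1 set and 0.911% in the lower-Vil1 set.

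Leading the 211 genes were Ppp1r1b, Dmbt1, Prss32 and Lypd8, all strong transcripts of the intact colon. Ppp1r1b, a regulator of protein phosphatase 1, was at 6.99, 14.2, 29.4 and 26.2 FPKM in the higher-Vil1 libraries and at 0.574, 1.08, 2.50, 0.0615 and 0.524 FPKM in the lower-Vil1 libraries, a log2 difference of 3.79. Lypd8, which keeps flagellated bacteria away from the epithelial surface, was at 28.5 to 337 FPKM in the higher-Vil1 libraries and 1.80 to 24.8 FPKM in the lower-Vil1 libraries. Its WT mean was 11068 ± 1244 FPKM (SD, n = 11), of which the higher-Vil1 set kept 1.42% and the lower-Vil1 set 0.101%. Dmbt1, a secreted scavenger protein that binds bacteria, kept 4.96% of WT in the higher-Vil1 set and 0.166% in the lower-Vil1 set. All 4 genes were lower in HO than in WT (limma log2 differences of -5.77 to -7.96).

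Markers shared by all epithelial lineages were higher together in the higher-Vil1 set. Of 16 genes on the epithelium list, 12 were counted higher in the higher-Vil1 set and none lower, with a median log2 difference of 2.67, beside 0.11 over all 12812 genes. All 16 were lower in HO than in WT, beside 38.4% of all genes. Cdx1, a homeobox factor that specifies intestinal identity, was at 3.96, 7.55, 19.8 and 20.7 FPKM in the higher-Vil1 libraries and at 0.311, 0.698, 1.71, 0 and 0.217 FPKM in the lower-Vil1 libraries. Hnf4a, a nuclear receptor of differentiated enterocytes, was at 1.44 to 11.3 FPKM in the higher-Vil1 libraries and 0.0138 to 0.617 FPKM in the lower-Vil1 libraries. Lgals4, a galectin that sorts proteins to the brush border, kept 6.11% of WT in the higher-Vil1 set and 0.445% in the lower-Vil1 set. The epithelium score, the mean log2(FPKM + 0.5) of the list, was 2.62 to 5.19 in the higher-Vil1 libraries and 0.15 to 2.15 in the lower-Vil1 libraries, against 7.82 to 8.17 in WT. Within the libraries with little Gm15564 the list median was 1.56, and within the others it was 3.86, beside 1.78 and 4.18 for Vil1 itself.

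What the higher-Vil1 set retained differed by lineage in the list medians. Of 17 absorptive colonocyte genes tested, 5 were counted higher in the higher-Vil1 set, beside 1.65% of all genes, with a list median of 0.51 that was 0.28 within the libraries with little Gm15564 and 0.72 within the others. Myo1a, a myosin of the microvillus, was at 1.62, 4.13, 7.96 and 14.1 FPKM in the higher-Vil1 libraries and at 0.387, 0.439, 0.521, 0.0623 and 0.224 FPKM in the lower-Vil1 libraries. Car1, a carbonic anhydrase of colonocytes, was at 2.33, 4.10, 4.11 and 24.98 FPKM in the higher-Vil1 libraries and at most 0.507 FPKM in the lower-Vil1 libraries. Slc26a3, the chloride-bicarbonate exchanger of surface colonocytes, did not share this pattern. It was at 0, 0.086, 0.0196 and 0.347 FPKM in the higher-Vil1 libraries and at 0, 0.00778, 0.158, 0.00993 and 0.0535 FPKM in the lower-Vil1 libraries, against 395 ± 139 FPKM in WT (SD, n = 11). The water channel Aqp8, 551 ± 162 FPKM in WT (SD, n = 11), was listed at 0 in 3 of 4 higher-Vil1 libraries and in 4 of 5 lower-Vil1 libraries. Near 0 FPKM such values rest on few fragments. Car4, another carbonic anhydrase, kept 2.66% of WT in the higher-Vil1 set and 2.68% in the lower-Vil1 set, with overlapping libraries.

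Goblet cell genes were low in both sets. Of 13 tested, 2 were counted higher in the higher-Vil1 set (1.65% of all genes), Agr2 and Spink4, and the list scores overlapped. Agr2, a disulfide isomerase needed for mucin folding, was at 2.12, 6.36, 39.8 and 5.48 FPKM in the higher-Vil1 libraries and at 0.912, 0.234, 1.82, 0.128 and 0.691 FPKM in the lower-Vil1 libraries, against 1180 ± 330 FPKM in WT (SD, n = 11). HO replicate 8 and not HO replicate 10 was highest here, the reverse of Vil1 and Krt8. Spink4 and Reg4, both secreted by goblet and other secretory cells, were also highest in HO replicate 8, at 12.7 and 3.89 FPKM, as was the immunoglobulin receptor Pigr at 24.8 FPKM. Tff3, a trefoil peptide of mucus, was highest in HO replicate 10 at 7.19 FPKM, and the set kept 0.209% of its WT mean.

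By list median, enteroendocrine genes kept more of their WT level, with members of the higher-Vil1 set between 6.88% and 81.9% of WT. Of 8 tested, 4 were counted higher in the higher-Vil1 set, beside 1.65% of all genes, and another 3 listed genes were below the expression filter. The list median was 1.36, and it was 0.76 within the libraries with little Gm15564 and 1.92 within the others. Their median level was 39.3% of WT in the higher-Vil1 set and 8.73% in the lower-Vil1 set, while for colonocyte genes it was 1.04% in the higher-Vil1 set and 0.203% in the lower-Vil1 set. Colonocyte members of the higher-Vil1 set lay between 0.00178% and 79.9% of WT, so single genes of the lists overlapped. The colonocyte gene Slc51b, counted higher, kept 33.3% of WT in the higher-Vil1 set, and 13.5% without HO replicate 10. Gcg, the precursor of glucagon-like peptides, was at 4.85, 6.26, 21.7 and 57.0 FPKM in the higher-Vil1 libraries and at 1.04, 0.210, 4.46, 0.447 and 0.348 FPKM in the lower-Vil1 libraries, against 16.7 to 59.9 FPKM in WT. Thus HO replicates 8 and 10 reached the WT range, while HO replicates 3 and 6 met at the border and overlapped when libraries were scaled by their 75th percentile. Pyy, made by the same L cells, kept 17.5% of WT in the higher-Vil1 set and 1.64% in the lower-Vil1 set. Insl5, an L cell hormone of the distal colon, kept 6.88% in the higher-Vil1 set and 0.600% in the lower-Vil1 set. Chga, a granin of all endocrine granules that enteric nerves can also carry, was at 5.91, 13.9, 10.2 and 19.5 FPKM in the higher-Vil1 libraries and at 5.24, 4.996, 4.96, 2.81 and 2.70 FPKM in the lower-Vil1 libraries. All 4 genes were lower in HO than in WT, with limma log2 differences of -1.84 for Chga, -2.68 for Gcg, -4.35 for Pyy and -5.44 for Insl5 (largest adjusted p 0.000199, for Gcg).

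**Figure D2:**
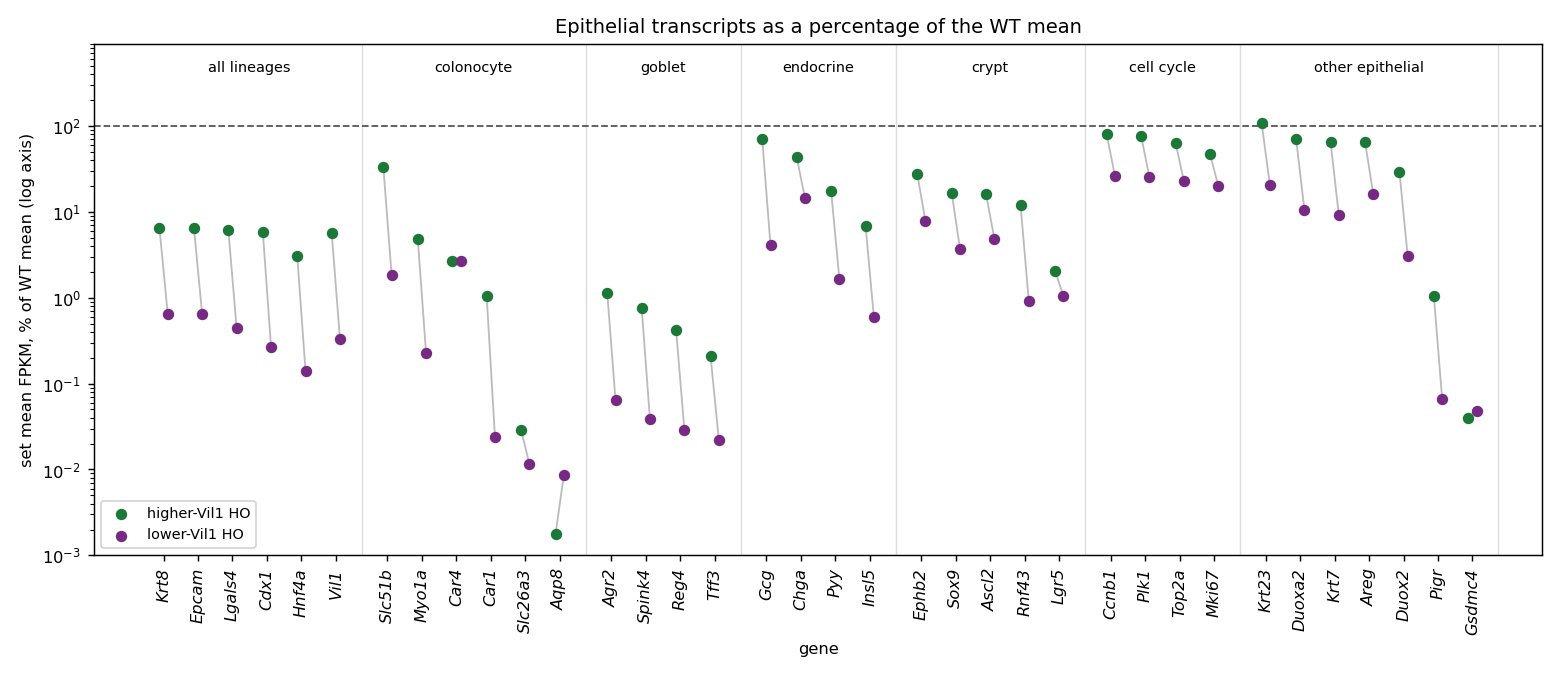
Mean FPKM of the higher-Vil1 HO libraries (green, n = 4) and of the lower-Vil1 HO libraries (purple, n = 5) as a percentage of the WT mean (n = 11, dashed line at 100), on a log axis for genes grouped by epithelial lineage. In the higher-Vil1 set Gcg stands at 70.0% and Krt7 at 65.4%, means that fall to 34.1% and 34.9% without HO replicate 10, and Slc26a3 stands at 0.0287%, near the bottom with Aqp8 and Gsdmc4.

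Single-gene percentages in the higher-Vil1 set lean on HO replicate 10. Without it, a check chosen after the values were seen, they moved by over 1.5 times for 23 of the 71 genes described, to 3.44% for Vil1, 4.06% for Lgals4, 0.886% for Lypd8, 9.25% for Pyy and 4.10% for Insl5. The list medians moved less, to 28.98% for enteroendocrine and 0.957% for colonocyte genes.

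The start regions of Gcg and Slc26a3 are shown as those of an epithelial gene with a high mean level relative to WT in the higher-Vil1 set and of one with a low level, although Krt23 and Duoxa2 were above Gcg and Aqp8 below Slc26a3. Each is the stretch of 250 bases before the gene's start, 5′ to 3′ on the gene's strand, from RefSeq on GRCm38.p6, with TATAAA on either strand in capitals. The Gcg stretch is chr2:62483654-62483903 on the minus strand and the Slc26a3 stretch is chr12:31437969-31438218 on the plus strand.
Gcg: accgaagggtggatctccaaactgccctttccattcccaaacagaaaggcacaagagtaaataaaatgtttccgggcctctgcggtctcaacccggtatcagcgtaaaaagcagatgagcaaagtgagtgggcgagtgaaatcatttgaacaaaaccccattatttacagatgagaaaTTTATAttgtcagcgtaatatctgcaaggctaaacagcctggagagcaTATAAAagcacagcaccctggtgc
Slc26a3: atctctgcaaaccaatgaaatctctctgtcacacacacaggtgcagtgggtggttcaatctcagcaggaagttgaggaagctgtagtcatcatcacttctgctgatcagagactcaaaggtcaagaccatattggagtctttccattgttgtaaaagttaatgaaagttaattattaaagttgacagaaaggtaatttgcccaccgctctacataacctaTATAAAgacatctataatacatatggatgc
Both hold TATAAA on the gene's own strand, its first base 24 bases before the start in Gcg and 30 in Slc26a3, while the same stretches of Aqp8, Vil1 and Krt8 hold none of the 3 motifs searched. TATAAA was in 12.6% of the 159 genes counted higher that have an entry, in 6.81% of the 10239 tested genes with one and in 12.97% of all 27025 genes with one. The letters TTTATNG, bound by CDX factors, were in 9.43% of the 159, 6.57% of the 10239 and 10.2% of the 27025. CAAAGTNCA, bound by HNF4, was in 3.77% of the 159 (6 genes), 1.03% of the 10239 and 1.21% of the 27025. All searches covered both strands and the same length, and a match is not a site in use.

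Crypt genes were also higher in the higher-Vil1 set. Of 13 stem cell and Wnt target genes, 3 were counted higher (1.65% of all genes), 13 had a positive difference and the list scores did not overlap. Sox9, a transcription factor of crypt progenitors, was at 0.730, 0.950, 3.21 and 4.42 FPKM in the higher-Vil1 libraries and at 0.478, 0.417, 0.708, 0.509 and 0.486 FPKM in the lower-Vil1 libraries. Rnf43, a Wnt-induced inhibitor of Wnt receptors, was at 0.317, 0.518, 0.785 and 2.14 FPKM in the higher-Vil1 libraries and at most 0.170 FPKM in the lower-Vil1 libraries. Ascl2, the transcription factor of crypt base stem cells, was at 0.923, 1.05, 1.02 and 1.14 FPKM in the higher-Vil1 libraries and at 0.0614 to 0.833 FPKM in the lower-Vil1 libraries. It thus stayed level in the higher-Vil1 set where Vil1 spanned 2.39 to 22.9 FPKM. Lgr5, the receptor that marks cycling stem cells, was at most 0.105 FPKM in the higher-Vil1 libraries and 0.0547 FPKM in the lower-Vil1 libraries, against 1.49 to 3.15 FPKM in WT.

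Cell cycle genes kept a larger share of their WT level than the epithelial lists above. All 19 tested had a positive difference, with a median of 1.09 beside 0.11 over all genes, and 4 were counted higher, beside 1.65%. Their median level was 80.2% of WT in the higher-Vil1 set and 40.0% in the lower-Vil1 set, with members of the higher-Vil1 set between 47.4% and 210% of WT. Over all 10 HO libraries 14 of the 19 were lower than in WT and none higher, beside 38.4% and 33.0% of all genes. The median limma log2 difference of the 19 was -0.79. Top2a, the DNA topoisomerase of dividing cells, was at 8.36, 10.3, 21.3 and 19.1 FPKM in the higher-Vil1 libraries and at 6.57, 7.96, 4.55, 1.77 and 5.59 FPKM in the lower-Vil1 libraries, against 12.1 to 49.8 FPKM in WT. Mki67, a nuclear protein of cycling cells, was at 4.90, 7.15, 12.9 and 14.4 FPKM in the higher-Vil1 libraries and at 4.39, 4.97, 2.94, 2.60 and 5.87 FPKM in the lower-Vil1 libraries, with overlap. Ccnb1, the mitotic cyclin, kept 80.1% of WT in the higher-Vil1 set and 26.2% in the lower-Vil1 set. Within the libraries with little Gm15564 the list median was 0.29, and within the others 1.80. Which cells divided cannot be read from whole tissue.

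Scores of the injury and defence lists overlapped between the sets. Of 15 tested genes of regenerating epithelium, 2 were counted higher, Krt7 and Krt23, 9 had a positive difference and the median was 0.11. Of 14 antimicrobial and barrier genes, 1 was counted higher, Lypd8, 11 had a positive difference and the median was 0.19. Krt7, Areg and Krt23 averaged 65.4%, 65.8% and 107% of WT in the higher-Vil1 set, and 34.9%, 26.3% and 64.4% without HO replicate 10. Krt7, a keratin of ducts that the intact colon also expresses, was at 19.3, 27.99, 44.6 and 138 FPKM in the higher-Vil1 libraries and at 12.5, 11.5, 9.17, 1.35 and 5.76 FPKM in the lower-Vil1 libraries, against 68.4 to 110 FPKM in WT. HO replicate 10 lay above the highest WT library and the other 3 below the lowest, and Krt7 was lower in HO than in WT (limma log2 difference -2.12, adjusted p = 0.000605). Krt23, another keratin, was at 1.64, 2.38, 1.97 and 7.26 FPKM in the higher-Vil1 libraries and at 0.210 to 1.25 FPKM in the lower-Vil1 libraries, and did not pass the test between HO and WT (limma adjusted p = 0.26). Areg, an EGF receptor ligand released in repair, was at 2.28, 5.32, 5.52 and 30.7 FPKM in the higher-Vil1 libraries and at 1.94 to 4.80 FPKM in the lower-Vil1 libraries, with overlap, and was lower in HO than in WT (limma log2 difference -1.38, adjusted p = 0.0112). Duoxa2, the maturation factor of the epithelial hydrogen peroxide source Duox2, kept 70.7% of WT in the higher-Vil1 set and 10.5% in the lower-Vil1 set, and did not pass the test between HO and WT (limma adjusted p = 0.0549). Gsdmc4, a gasdermin of colonocytes, was far from WT in both sets, at 0.0403% in the higher-Vil1 and 0.0484% in the lower-Vil1 libraries. Cldn2, a claudin that forms cation pores in the tight junction, was at 1.22 to 8.73 FPKM in the higher-Vil1 libraries and 0.0694 to 0.758 FPKM in the lower-Vil1 libraries. It was the 1 of 7 claudins counted higher, beside 1.65% of all genes.

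Genes of stratified epithelium, such as that of the anal canal, were mostly too low to test. Of 16 squamous genes listed, 3 were tested, and Krt5 and Trp63, which define that tissue, were below the expression filter. Perp, a desmosome protein that simple epithelia share, was the 1 squamous gene counted higher.

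Over the 42 lists with a tested member, scores lay above without overlap in 7 and below in 0. The 7 were the epithelium, colonocyte, enteroendocrine, stem cell, claudin, distal Hox and macrophage lists. A separate score does not mean that most members differed. The distal Hox score includes Hoxb13, the 1 of 8 members counted, and its list median was 0.21, beside 0.11 over all genes. Of 7 claudins, 4 had a positive difference and 1 was counted.

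**Figure D3:**
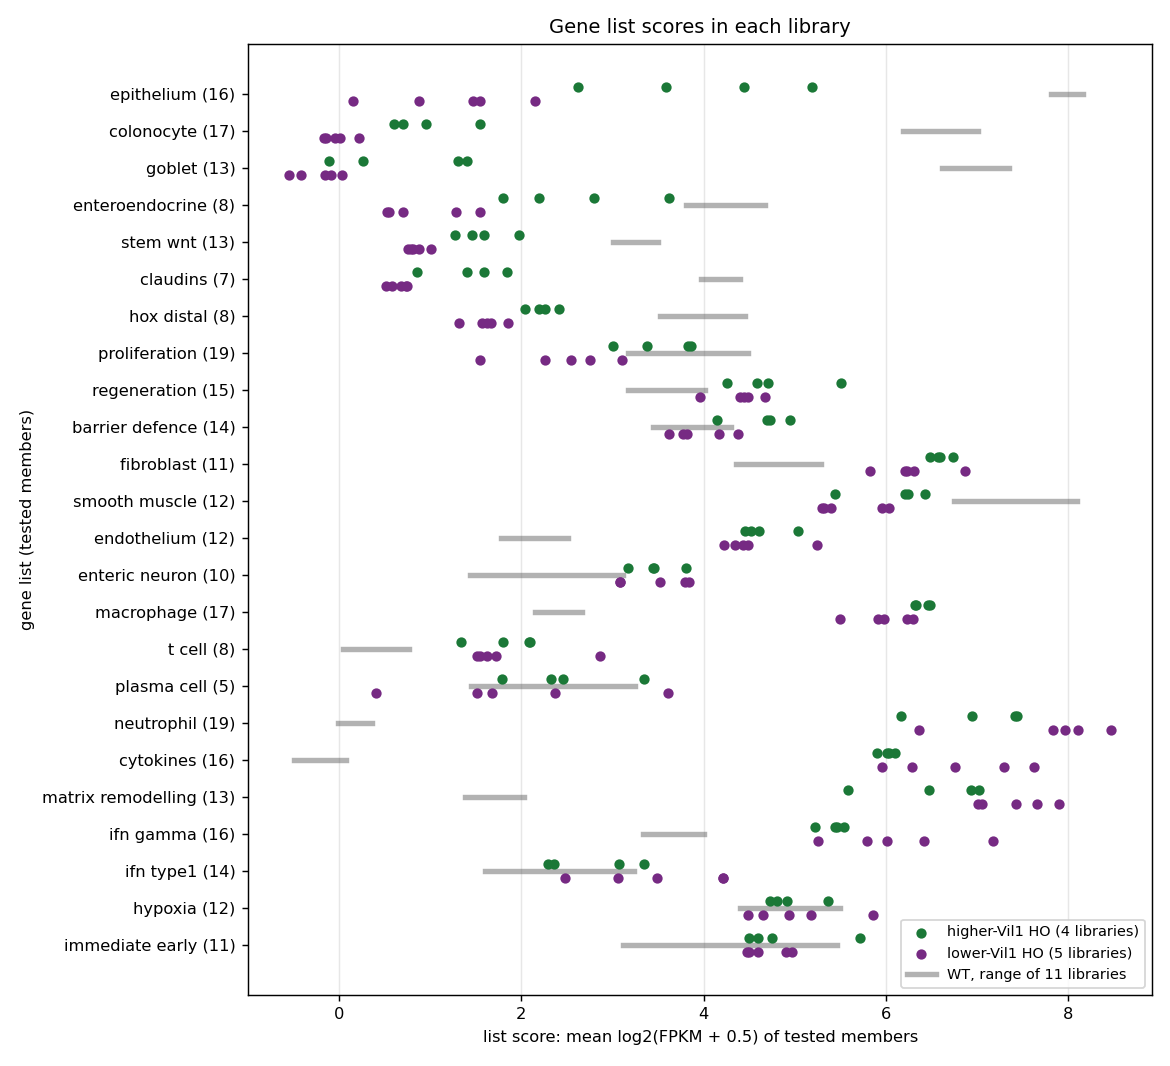
Mean log2(FPKM + 0.5) of the tested members of each gene list (number of members in brackets), with 1 point per library for the higher-Vil1 HO libraries (green, 4) and the lower-Vil1 HO libraries (purple, 5) and a grey bar for the range of the 11 WT libraries. The epithelium scores of 2.62 to 5.19 in the higher-Vil1 libraries lie above those of 0.15 to 2.15 in the lower-Vil1 libraries and below WT, while neutrophil and cytokine scores overlap between the sets.

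Only 4 genes were counted lower in the higher-Vil1 set, of which Il6, Plau and Ccno are described. Il6, an inflammatory cytokine made by fibroblasts and myeloid cells, was at 17.2, 44.4, 84.7 and 83.6 FPKM in the higher-Vil1 libraries and at 96.1, 85.1, 425, 379 and 97.0 FPKM in the lower-Vil1 libraries, against at most 0.178 FPKM in WT. HO replicates 8 and 4 differed by less than 1 FPKM across the border, and Il6 overlapped when libraries were scaled by the 75th percentile or to TPM. Plau, the urokinase plasminogen activator, was at 33.0, 54.1, 48.8 and 37.0 FPKM in the higher-Vil1 libraries and at 65.2, 120, 227, 88.6 and 77.3 FPKM in the lower-Vil1 libraries, against 7.07 ± 2.03 FPKM in WT (SD, n = 11). Ccno, a cyclin-like protein of multiciliated cells, was at 0.873 to 1.32 FPKM in the higher-Vil1 libraries and 2.21 to 8.59 FPKM in the lower-Vil1 libraries. Each of these was higher in HO than in WT, with limma log2 differences of 2.54 for Ccno, 3.26 for Plau and 7.44 for Il6. None of the 4 kept the separation when the Vil1 border was set at 1 FPKM, which moved HO replicate 6 to the upper set. With the border at 5 FPKM, Il6, Plau and Ccno overlapped as well. The count was 57 without HO replicate 4, 13 without HO replicate 8, 12 without HO replicate 5, 9 without HO replicate 3 and 7 without HO replicate 1 or 9.

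Below the 2-fold mark, Arg2, Clec5a and Il17ra were also lower without overlap. Each of them overlapped with the Vil1 border at 1 FPKM. Arg2 and Clec5a also overlapped with the border at 5 FPKM, and Clec5a under TPM scaling. Arg2, the mitochondrial arginase, was at 48.4, 54.4, 48.9 and 30.7 FPKM in the higher-Vil1 libraries and at 93.6, 62.4, 82.7, 109 and 82.2 FPKM in the lower-Vil1 libraries. Il17ra, the receptor subunit for IL-17 cytokines, was at 17.8 to 31.5 FPKM in the higher-Vil1 libraries and 33.7 to 46.8 FPKM in the lower-Vil1 libraries. Clec5a, an activating receptor of myeloid cells, had a log2 difference of -0.65. Such genes without overlap numbered 32 in all (0.250% of 12812), against 582 (4.54%) that lay above.

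**Figure D4:**
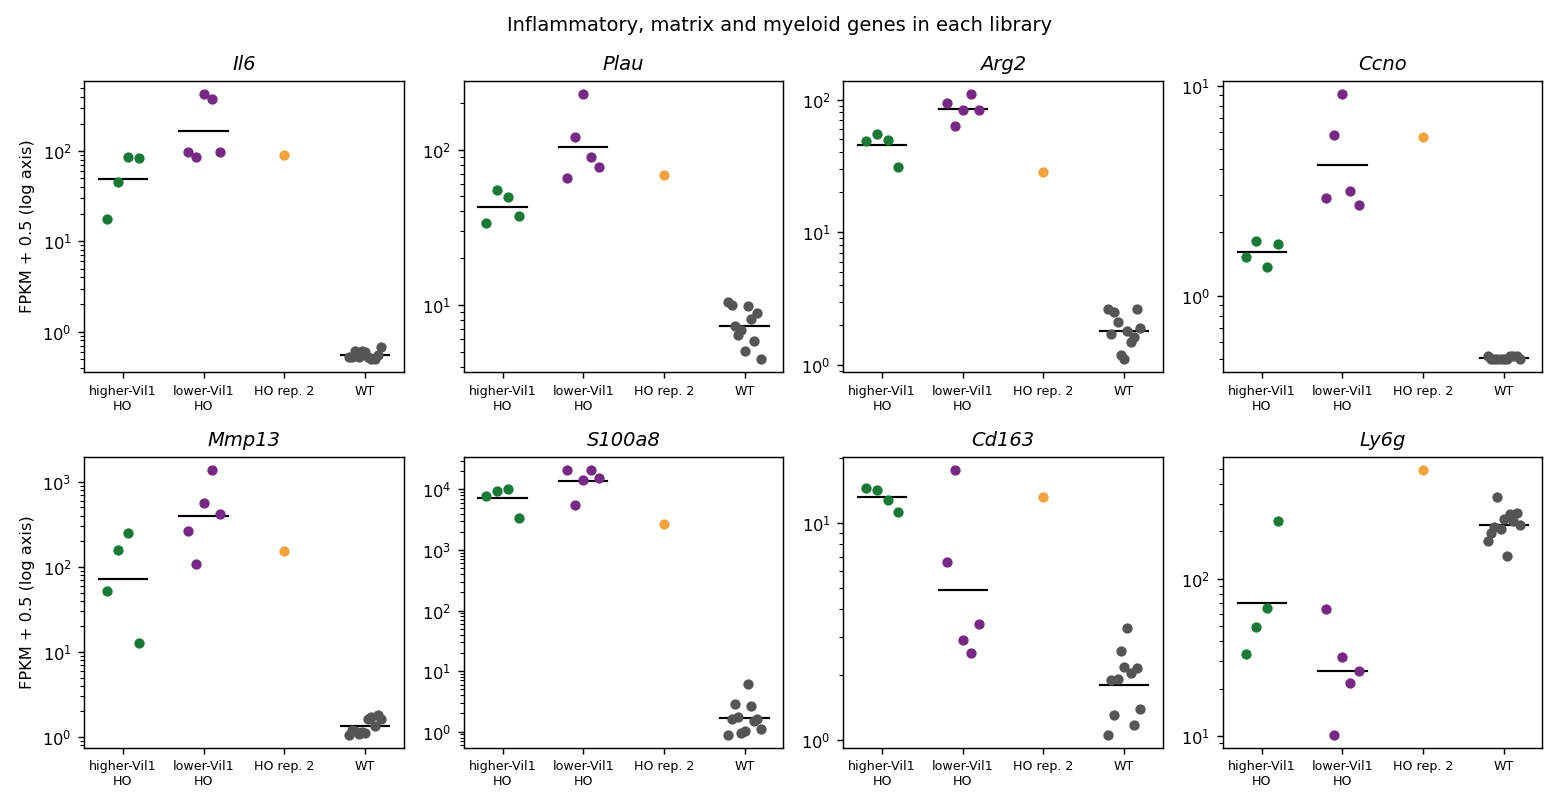
FPKM + 0.5 on a log axis for 8 genes of inflammation, matrix and myeloid cells, with 1 point per library in the 4 higher-Vil1 HO libraries, the 5 lower-Vil1 HO libraries, HO replicate 2 and the 11 WT libraries; bars are means on the log scale. Il6, Plau, Arg2 and Ccno are lower in the higher-Vil1 set without overlap, and Mmp13, S100a8, Cd163 and Ly6g overlap.

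Neutrophil, cytokine, interferon and protease lists had lower medians in the higher-Vil1 set, with overlapping scores. The neutrophil median was -0.92 over 19 genes, none of them counted, and it was -0.24 within the libraries with little Gm15564 and -1.37 within the others. S100a8, a calcium-binding protein that fills neutrophils, was at 7732, 9313, 10267 and 3396 FPKM in the higher-Vil1 libraries and at 20577, 5458, 14550.1, 20945 and 15601 FPKM in the lower-Vil1 libraries. HO replicate 4 was the exception in the lower-Vil1 set. Stfa2, a stefin of neutrophils, was at 76.0 to 259 FPKM in the higher-Vil1 libraries and 108 to 843 FPKM in the lower-Vil1 libraries. Cxcr2, the receptor that draws neutrophils to CXC chemokines, had a log2 difference of -1.16. Ly6g, used as a neutrophil surface marker, had a positive log2 difference of 1.44 with overlapping sets, at 32.7, 48.5, 64.5 and 233 FPKM in the higher-Vil1 libraries and at 64.1, 9.73, 31.4, 21.1 and 25.6 FPKM in the lower-Vil1 libraries. It was already at 223 ± 50.2 FPKM in WT (SD, n = 11), where S100a8 averaged 1.48 FPKM, and it was lower in HO than in WT (limma log2 difference -2.07, adjusted p = 6.66e-05).

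The cytokine median was -0.71 over 16 genes, and that of the interferon gamma response was -0.64 over 16 genes. Among the cytokines Il6 alone was counted lower, beside 0.0312% of all genes. Within the libraries with little Gm15564 the medians were -0.47 for cytokines and -0.14 for the interferon gamma response, and within the others -0.91 and -0.96. Cxcl9, a T cell chemokine induced by interferon gamma, was at 31.3, 22.7, 51.2 and 29.9 FPKM in the higher-Vil1 libraries and at 56.4, 32.2, 367, 265 and 91.0 FPKM in the lower-Vil1 libraries. HO replicates 6 and 7 were far above the rest. Gbp2, an interferon-induced GTPase, was at 86.5 to 118 FPKM in the higher-Vil1 libraries and 81.5 to 527 FPKM in the lower-Vil1 libraries. The type I interferon list had a median of -0.67 over 14 genes, but of 0.23 within the libraries with little Gm15564 and -1.44 within the others. Its member Rsad2 was at 5.16, 13.4, 1.25 and 1.28 FPKM in the higher-Vil1 libraries and at 26.3, 1.74, 9.999, 23.1 and 9.53 FPKM in the lower-Vil1 libraries. Saa3, an acute phase protein, did not follow these lists, at 33211 to 48195 FPKM in the higher-Vil1 libraries and 22349 to 51672 FPKM in the lower-Vil1 libraries.

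Matrix protease scores ran from 5.58 to 7.03 in the higher-Vil1 libraries and from 7.01 to 7.90 in the lower-Vil1 libraries. Mmp13, a collagenase, was at 52.2, 156, 249 and 12.2 FPKM in the higher-Vil1 libraries and at 267, 109, 561, 1378 and 413 FPKM in the lower-Vil1 libraries. Mmp10, a stromelysin, was at 61.7, 140, 254 and 9.93 FPKM in the higher-Vil1 libraries and at 237, 211, 437, 494 and 400 FPKM in the lower-Vil1 libraries. HO replicate 10, with the most Vil1, had the least of both, and HO replicate 8 the most of its set. The protease list median was -0.62 over 13 genes, and was -0.27 within the libraries with little Gm15564 and -0.97 within the others. Plau was the 1 member counted lower, beside 0.0312% of all genes.

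Macrophage scores nearly met between the sets. They were 6.32 to 6.49 in the higher-Vil1 libraries and 5.50 to 6.29 in the lower-Vil1 libraries, with HO replicates 5 and 4 next to each other across the gap. None of 17 genes was counted, 12 had a positive difference, and the list median of 0.60 was 0.12 within the libraries with little Gm15564 and 0.79 within the others. In WT the score was 2.15 to 2.67. Cd163, a haemoglobin scavenger receptor of resident macrophages, was at 14.1, 13.7, 12.3 and 10.8 FPKM in the higher-Vil1 libraries and at 6.15, 17.05, 2.40, 2.01 and 2.93 FPKM in the lower-Vil1 libraries. HO replicate 4 again stood apart from its set. C1qa, a complement subunit made by macrophages, was at 342 to 475 FPKM in the higher-Vil1 libraries and 108 to 412 FPKM in the lower-Vil1 libraries. Arg1, the cytosolic arginase of recruited macrophages, was at 392 to 712 FPKM in the higher-Vil1 libraries and 66.1 to 503 FPKM in the lower-Vil1 libraries. The part of these cells in the epithelial differences was not tested.

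Stromal and muscle genes overlapped. The fibroblast list had a median of 0.40 over 11 genes and the smooth muscle list of 0.53 over 12, none counted. Col1a1, the main fibrillar collagen, was at 212, 219, 227 and 254 FPKM in the higher-Vil1 libraries and at 111, 282, 92.1, 57.9 and 101 FPKM in the lower-Vil1 libraries, with HO replicate 4 as the exception. Actg2, the enteric smooth muscle actin, was at 292, 323, 167 and 308 FPKM in the higher-Vil1 libraries and at 237, 261, 131, 90.8 and 118 FPKM in the lower-Vil1 libraries, against 631 to 2582 FPKM in WT. The 4 libraries under 1 FPKM of Gm15564 lay at 292 and 323 FPKM in the higher-Vil1 set and at 237 and 261 FPKM in the lower-Vil1 set. The enteric neuron and endothelium lists had medians of 0.018 and 0.085. Among immediate early genes, which respond to tissue handling, Fosb was at 29.9 FPKM in HO replicate 10 and at most 1.79 FPKM in the other 8 libraries compared.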

How the data were processed

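Per the labels, TRIzol total RNA of colon tissue went into libraries built with the VAHTS Universal V6 kit. The submitters' processing notes name fastp, HISAT2, HTSeq and mm10, with versions, annotation and strand setting not given in the sources used here. FPKM values, deposited in 1 table, were computed by the authors for 27623 genes, so no counts or counting intervals are given, and depth was compared from whole steps in low values. Near-identical paralogs share reads and are uncertain.

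The members and gene lists were chosen with earlier results of these data known. Of 520 list members, 422 were tested, 88 were below the filter and 10 were not analysed here. A gene was kept where 10 or more of the 31 libraries reached 1 FPKM (12812 genes). Differences between the Vil1 sets are those of mean log2(FPKM + 0.5), which understate changes of low genes, with no test. HO was compared with WT by limma 3.58.1 in R 4.3.3 on log2(FPKM + 0.5), with 1 mean per genotype, all 31 libraries, robust moderation and a variance trend, and Benjamini-Hochberg adjustment (threshold 0.05). Data were simulated over 12812 genes with the means and spreads of the WT libraries in every group and changes in few genes. On these, limma recovered 96% of 2-fold and 100% of 4-fold changes with 14 false calls. Measured HO libraries varied more for genes such as Vil1, and many more genes differed, so these rates may not hold for them. A count model was planned for counts and could not be used with FPKM. Figures used matplotlib 3.10.9. Genes named are Vil1, Hoxb13, Map3k7, Tradd, Ripk1, the 15 largest differences each way without overlap, and the 4 largest of each list; others were chosen after their values were seen. Genes without an established symbol, pseudogenes, receptor segments, Y-linked genes and Xist were only counted. Of the 179 genes this rule takes, 58 are described, and the others are not reported here. No pair of libraries had identical values.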

Additional observations from a re-analysis of the deposited data

Results flagged for a closer look

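In sets of 4 and 5 libraries, 22 of 226 values checked had a highest or lowest library far from the rest; chance gives about 1 in 20, and FPKM values are skewed. In the higher-Vil1 set HO replicate 10 stood above for Car1 (24.98 FPKM), Krt23 (7.26), Areg (30.7), Hoxd13 (20.9), Ly6g (233) and Fosb (29.9), and for Aqp8 (0.0392). In each Vil1 set a single library had Aqp8 above 0, and such a value is always flagged, however small. HO replicate 8 stood above for Agr2 (39.8 FPKM), and HO replicate 3 for the TNF and cell death list (score 4.73).

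In the lower-Vil1 set HO replicate 6 stood above for Elf3, an epithelial transcription factor (3.71 FPKM), Aqp8 (0.239), Gcg (4.46), Rnf43 (0.170), Areg (4.80), Duox2 (0.997), Fosb (1.79) and the T cell list (score 2.86). HO replicate 4 stood above for Cd163 (17.05 FPKM), Col1a1 (282) and the endothelium list (score 5.24). HO replicate 9 stood above for Ascl2 (0.833 FPKM) and HO replicate 1 below for Ephb2, a crypt receptor kinase (0.327 FPKM).

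Ripk1 moved in opposite directions in the divisions by Gm15564, with a log2 difference between the Vil1 sets of 0.14 in libraries under 1 FPKM and -0.15 in those over 1 FPKM. It was the only one of the 71 genes described whose sets did not overlap in either division and lay in opposite order. Differences of 5 others also changed sign, with overlapping libraries in at least 1 division, among them Rsad2 (0.19 under and -2.94 over 1 FPKM) and Fosb (-0.20 and 1.995). None of these differences was tested.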

How the results depend on the processing

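No paired analysis was possible because replicate numbers only follow the order of listing and do not pair HO with WT. Genes counted higher in the higher-Vil1 set (211) came to 319 with a pseudocount of 0.1, 125 with a filter of 1 FPKM in 4 of the 9 libraries, 448 with the Vil1 border at 5 FPKM, 127 and 770 within libraries under and over 1 FPKM of Gm15564, and 166 to 408 leaving out 1 library. Genes counted lower (4) came to 0 with the border at 1 FPKM, 72 with it at 5 FPKM, 21 and 189 within those divisions, and 4 to 57 leaving out 1 library. With the border at 1 FPKM 151 genes were counted higher, 106 of them among the 211. At that border Hoxb13, Hoxd13, Slc51b, Spink4, Chga, Ascl2, Top2a, Ccnb1, Krt7, Krt23 and Perp no longer separated the sets. Ascl2 also overlapped at 5 FPKM, with 75th percentile scaling and with HO replicate 2 added. Leaving out both libraries next to the border, an alternative chosen after seeing the data, gave 419 higher, 210 of them among the 211, and 11 lower. The cause of these moves was not tested, except that smaller sets overlap less easily. The claudin median turned to -0.055 under the 4-library filter, the distal Hox median to -0.033 with the border at 1 FPKM, and Hoxd13 to -0.17 with HO replicate 2 added. Calls between HO and WT (9148) ranged from 9139 to 10004 over the same 12812 genes, and came to 13233 of 27623 genes with no filter. TPM scaling gave 3575 higher and 5679 lower, with a median over all genes of -0.19 in place of -0.064. Genes near 0 FPKM are limited by depth.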

Other observations

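HO replicate 2, left out of the comparison, differed from the higher-Vil1 libraries in which epithelial genes it held. Slc26a3 and Aqp8 were both at 14.2 FPKM in HO replicate 2, against at most 0.347 and 0.0392 FPKM in the higher-Vil1 libraries. Slc51b, a bile acid transporter subunit, was at 343 FPKM in HO replicate 2, against 10.1 to 30.7 FPKM in WT. Insl5 was at 0.629 FPKM in HO replicate 2, below all 4 higher-Vil1 libraries at 1.97 to 13.9 FPKM, and Hoxd13 was listed at 0 there. Plk1, a mitotic kinase, was at 16.5 FPKM in HO replicate 2, against 6.22 to 12.2 FPKM in the higher-Vil1 libraries.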
